A study of Mus musculus with 12 samples.

Results

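Complement components and their regulators are described here through 6 genes, C3, C4b, Cfb, Serping1, Cd55 and Cd59a, of the 27670 gene names on the array. The members were found by name. Every probe whose gene name, older alias or accession pointed to one of them was taken, which gave 10 of 41174 probes. The 6 genes were chosen by their differences from both controls on these arrays, so the values below are a description and carry no test.

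RNA was measured from neural progenitor cells of 129/Ola mice on 12 one-colour arrays, 4 on each of 3 slides. Of these, 10 cultures had been infected with a retrovirus, built in pMXs-IRESNeo, that carried the open reading frame of 1 transcription factor: Crebzf, Esx1, Etv6, Gatad2b, Hmga2, Nfxl1, Pax6, Pdx1, Sox11 or Zfp451. The controls were a culture given EGFP and a culture labelled mock. Per the series design, about 95% of infected cells expressed the insert, G418 was added at 24 h to remove the rest, and cells were harvested at 72 h. The sources used here do not give whether the mock culture met a virus or G418. The series title speaks of interfering and non-interfering factors, but the labels do not say which factor is which, so no such comparison was made. Each group held 1 array. There is therefore no replicate error, and a difference is given beside the gap between EGFP and mock. The absolute value of that gap had a median of 0.07 and a 95th percentile of 0.35 on the log2 scale. This was over the 16074 genes that all 12 arrays measured well above background. Both controls shared 1 slide, so the gap holds no difference between slides.

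Complement is a cascade of blood and tissue proteins. The classical pathway starts with C1, whose proteases C1r and C1s together lead to the cleavage of C4 and C2. The lectin pathway reaches the same step through the MASP proteases. All routes meet at C3, whose cleavage tags surfaces and leads to the terminal components that form the membrane attack complex, while soluble and membrane-bound regulators hold the cascade in check on the body's own cells. In brain, glia and neurons make several of these proteins locally, and complement tagging takes part in the removal of synapses by microglia.

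Upstream sequence was taken from RefSeq promoter windows on GRCm38.p6 for C3 and for genes of the pathway that were higher on the same arrays (C1ra, C1s1, C8g and Cd59b), with Cd59a shown beside its duplicate Cd59b. Of the 6 members, C3, Cd55 and Cd59a had an entry. Serping1, C4b and Cfb did not. The 250 bases before the first listed start site are shown 5′ to 3′ on the gene's strand, with motif matches in capitals.
C3, chr17:57228137-57228386, minus strand: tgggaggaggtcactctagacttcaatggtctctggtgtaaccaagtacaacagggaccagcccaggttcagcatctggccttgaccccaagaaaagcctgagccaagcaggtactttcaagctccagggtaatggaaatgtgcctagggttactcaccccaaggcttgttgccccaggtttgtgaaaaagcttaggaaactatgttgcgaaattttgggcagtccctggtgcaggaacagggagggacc
C1ra, chr6:124512371-124512620, plus strand: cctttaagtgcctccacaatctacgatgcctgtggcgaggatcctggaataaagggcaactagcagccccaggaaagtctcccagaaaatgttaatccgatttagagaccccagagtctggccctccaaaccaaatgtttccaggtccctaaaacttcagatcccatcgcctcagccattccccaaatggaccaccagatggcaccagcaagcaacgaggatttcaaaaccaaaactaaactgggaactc
C1s1, chr6:124542360-124542609, minus strand: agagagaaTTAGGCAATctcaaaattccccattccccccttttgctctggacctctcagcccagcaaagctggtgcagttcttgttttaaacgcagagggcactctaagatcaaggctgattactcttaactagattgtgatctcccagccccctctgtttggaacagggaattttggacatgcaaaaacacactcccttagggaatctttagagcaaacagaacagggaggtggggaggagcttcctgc
C8g, chr2:25501720-25501969, minus strand: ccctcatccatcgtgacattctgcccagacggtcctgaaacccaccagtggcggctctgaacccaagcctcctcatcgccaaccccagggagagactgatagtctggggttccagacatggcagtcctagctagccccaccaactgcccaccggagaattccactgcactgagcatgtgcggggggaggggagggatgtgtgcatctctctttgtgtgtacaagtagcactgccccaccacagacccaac
Cd59a, chr2:104095551-104095800, plus strand: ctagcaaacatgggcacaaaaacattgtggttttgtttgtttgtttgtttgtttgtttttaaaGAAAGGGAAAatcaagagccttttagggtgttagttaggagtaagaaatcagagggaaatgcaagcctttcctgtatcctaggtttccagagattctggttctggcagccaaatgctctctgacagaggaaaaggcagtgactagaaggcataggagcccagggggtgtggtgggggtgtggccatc
Cd59b, chr2:104070816-104071065, plus strand: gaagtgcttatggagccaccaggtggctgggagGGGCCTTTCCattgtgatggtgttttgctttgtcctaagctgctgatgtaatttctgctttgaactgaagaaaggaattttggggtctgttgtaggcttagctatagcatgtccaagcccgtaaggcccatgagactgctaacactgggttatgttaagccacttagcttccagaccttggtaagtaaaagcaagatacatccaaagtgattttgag
The motifs searched, on both strands, were an interferon-stimulated response element (ISRE), a STAT site (GAS, TTCNNNGAA), an NF-kappaB site (in either of its common core forms), a C/EBP site (TTNNGCAAT) and the TATA box (TATAAA), over windows that also held the 50 bases after the start. Among all 32851 windows of this length in the table, 3.44% held the ISRE letters, 8.30% GAS, 3.24% NF-kappaB, 2.18% C/EBP and 13.6% TATAAA. The Cd59a stretch held an ISRE match 187 bases before the start. Its neighbour Cd59b held an NF-kappaB match instead, 217 bases before the start. The C1s1 stretch held a C/EBP match 242 bases before the start. The matches of C3 and C1ra lay past the start, outside the printed bases: with the start site counted as base 1, TATAAA began at base 15 for C3 and GAS at base 33 for C1ra. The windows at both listed starts of C8g, and at the second listed start of C1s1, held no match. The Cd55 window held an NF-kappaB match on the opposite strand, 61 bases before the start. No match overlapped another. These are matches of letters, not sites shown to be bound.

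Of the members, C3 and Serping1 were far higher than both controls on the Crebzf, Esx1, Pax6, Pdx1, Sox11 and Zfp451 arrays, and were not called on the Hmga2, Gatad2b, Etv6 and Nfxl1 arrays, where their differences from the control mean ran from -0.26 to 0.32 for C3 and from -0.17 to 0.78 for Serping1. Cd59a was higher on the same 6 arrays by a smaller margin and passed the 2-fold rule on 1 of them. C4b leaned the same way on those arrays without passing the rule. Cfb and Cd55 were at or near background throughout. The rule for a call asked that a level exceed both EGFP and mock by 2-fold or more, or fall short of both by as much, and that the brighter side carry the image software's well-above-background flag. Levels are log2 of the deposited signal relative to the array's 75th percentile, so 0 is that percentile, and a level is not comparable between probes.

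**Figure D1:**
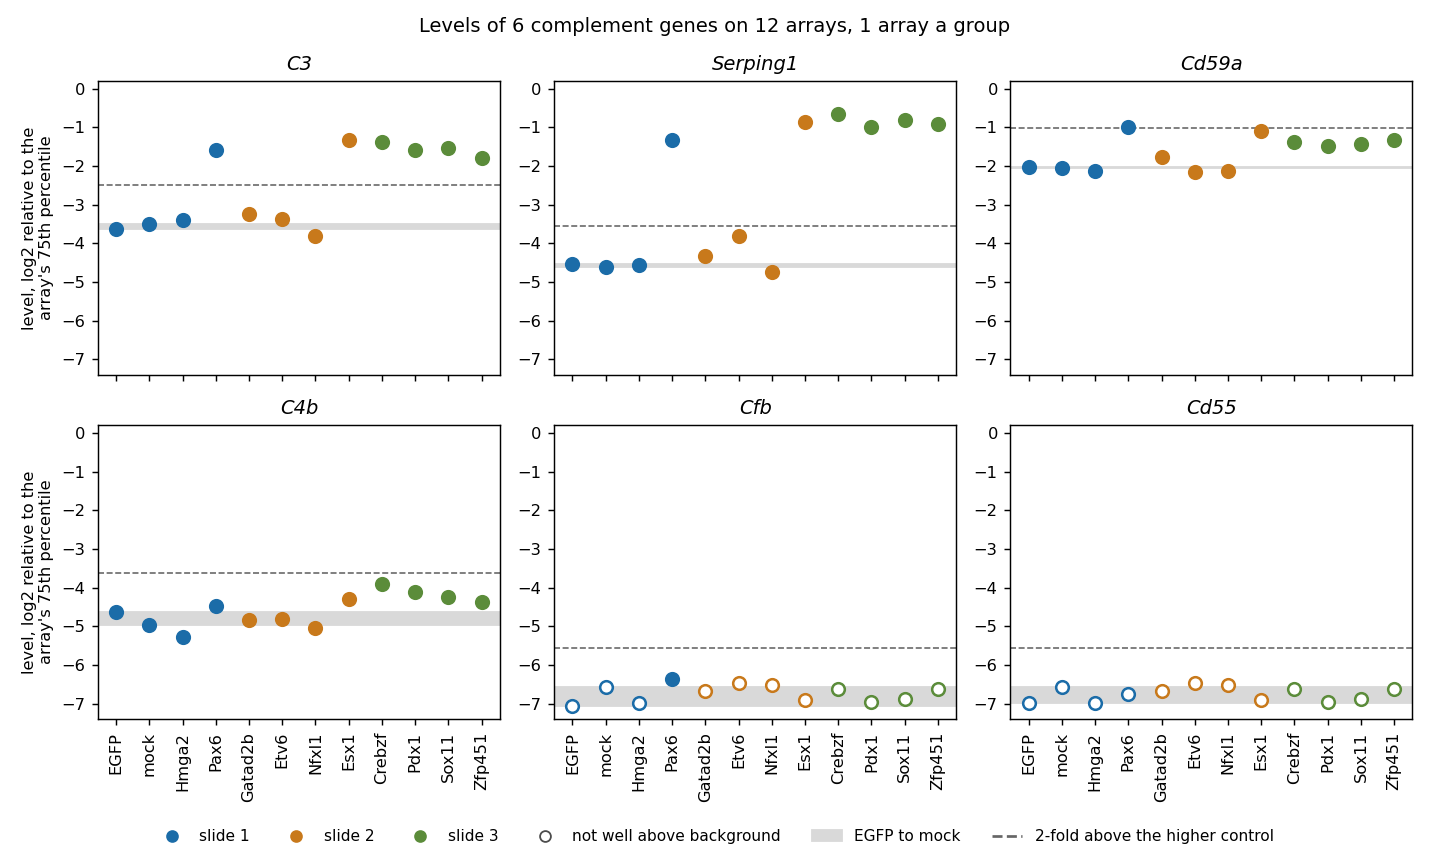
Level of each of the 6 complement genes (log2 relative to the array's 75th percentile, main probe) on the 12 arrays, 1 array a group. Colour gives the slide, hollow points were not well above background, the grey band runs from EGFP to mock and the dashed line lies 2-fold above the higher control. C3 and Serping1 exceed the line on the Crebzf, Esx1, Pax6, Pdx1, Sox11 and Zfp451 arrays, Cd59a on Pax6, and C4b, Cfb and Cd55 on no array. Panels share an axis, but levels of different probes are not comparable.

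C3 is the central component whose cleavage yields C3a and C3b. Its main probe lies on chromosome 17 at 55414567 to 55414626 on the minus strand (mm7) and was spotted 10 times on each array. The C3 level was -3.63 on the EGFP array and -3.50 on the mock array. On the Pax6 array the C3 level was -1.58, on Esx1 -1.32, on Crebzf -1.37, on Pdx1 -1.59, on Sox11 -1.53 and on Zfp451 -1.78. On the Hmga2 array it was -3.40, on Gatad2b -3.24, on Etv6 -3.38 and on Nfxl1 -3.82. The first 6 of these arrays lay from -1.78 to -1.32 and the other 6, controls included, from -3.82 to -3.24, with no overlap and a gap of 1.46 between Zfp451 and Gatad2b. That gap was the only step between neighbours in the order of the 12 levels that exceeded 0.35. The share of all genes that split these arrays without overlap is not given here. Over the 12 arrays, 19.4% of 16073 genes had a Pearson correlation of at least 0.9 with C3. The SD over the 10 spots was 0.06 to 0.11 on each array, which is technical error within an array. Against the mean of both controls, C3 was 3.44-fold (Zfp451) to 4.73-fold (Esx1) higher on the 6 arrays, while the difference on the other 4 factor arrays ran from -0.26 to 0.32. The other C3 probe, at 55435522 to 55435679, was well above background on no array, so the probes disagree. With the mean of both probes the C3 difference was 0.91 to 1.19 and the call held on 1 of the 6 arrays.

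Serping1 encodes the C1 inhibitor, the serpin that inactivates C1r and C1s. Its probe covers 84609527 to 84611033 on chromosome 2 (mm7), a span of 1507 bases. The Serping1 level was -4.54 on EGFP and -4.62 on mock. It was -1.32 on Pax6, -0.86 on Esx1, -0.66 on Crebzf, -0.99 on Pdx1, -0.82 on Sox11 and -0.91 on Zfp451. It was -4.56 on Hmga2, -4.32 on Gatad2b, -3.80 on Etv6 and -4.75 on Nfxl1. The arrays called were the same 6 as for C3, and the gap from the lowest of them, Pax6, to the next array, Etv6, was 2.48. As for C3, the share of all genes that split these arrays without overlap is not given here. Over the 12 arrays, 19.2% of 16073 genes had a Pearson correlation of at least 0.9 with Serping1. Serping1 was 9.56-fold (Pax6) to 15.1-fold (Crebzf) above the control mean. On Etv6 it was 0.78 above the control mean, more than the usual EGFP to mock gap but short of the rule. In signal units, Serping1 was 36.1 and 40.5 on the controls and between 395.8 and 629.0 on the 6 arrays.

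The rule that named the members used these same values, so the shares below are background and not support. Over all genes tested, 10.7% were called higher on Pax6, 10.4% on Esx1, 9.83% on Crebzf, 9.85% on Pdx1, 9.75% on Sox11 and 9.6% on Zfp451, against 0.439% on Hmga2, 0.644% on Gatad2b, 1.05% on Etv6 and 0.301% on Nfxl1. Of the 5 members with a detected probe, 3 were called higher on Pax6 and 2 on each of the other 5 arrays named first, and none was called on the last 4. No member was called lower on any array, where the share of all genes called lower was 6.4% on Pax6, 7.42% on Esx1, 6.28% on Crebzf, 6.63% on Pdx1, 6.93% on Sox11, 6.3% on Zfp451, 0.673% on Hmga2, 1.05% on Gatad2b, 0.835% on Etv6 and 1.23% on Nfxl1. The Serping1 difference stood at the 99.2nd to 99.7th percentile of all genes tested on the 6 arrays, and the C3 difference at the 95.2nd to 96.8th. Cd59a reached the 81.1st to 88.6th and C4b the 69.5th to 87.5th.

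**Figure D2:**
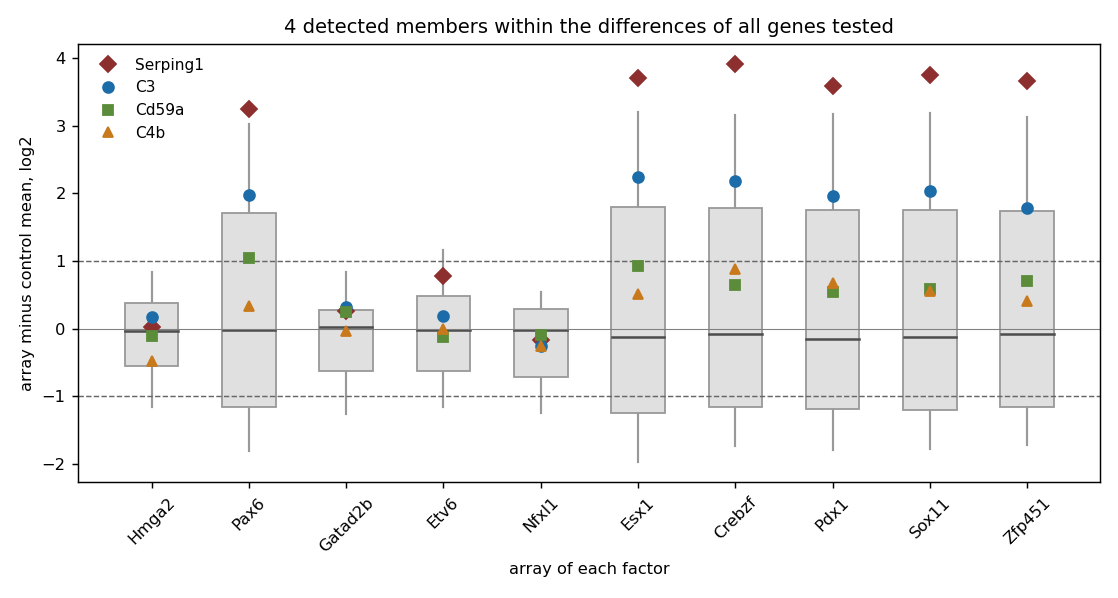
Difference from the control mean (log2) of the 4 members well above background on all 12 arrays, for each factor's array. Grey boxes run from the 5th to the 95th percentile of all genes tested, thin lines from the 1st to the 99th, the bar in each box is the median, and dashed lines mark 2-fold. Serping1 lies above the 99th percentile on the Crebzf, Esx1, Pax6, Pdx1, Sox11 and Zfp451 arrays, and C3 above the 95th.

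Cd59a encodes a membrane-anchored protein that blocks assembly of the membrane attack complex. Its main probe lies on chromosome 2 at 103965318 to 103965377 on the plus strand (mm7). The Cd59a level was -2.01 on EGFP and -2.04 on mock. It was -0.98 on Pax6, -1.10 on Esx1, -1.32 on Zfp451, -1.38 on Crebzf, -1.43 on Sox11 and -1.49 on Pdx1. It was -1.78 on Gatad2b, -2.12 on Nfxl1, -2.13 on Hmga2 and -2.16 on Etv6. The 6 higher arrays did not overlap with the rest, although no step between neighbours in the order exceeded 0.35. The share of all genes that split these arrays without overlap is not given here. Over the 12 arrays, 12.4% of 16073 genes had a Pearson correlation of at least 0.9 with Cd59a. Cd59a was called on Pax6 at 2.06-fold, just past the rule, and Esx1 lay just outside it at 1.90-fold. The call on Pax6 was lost with quantile normalization, where the difference was 0.90, and with a normexp background correction, where it was 0.88. A second probe, at 103964800 to 103964859, gave differences of 1.18 on Pax6, 1.09 on Crebzf, 1.02 on Sox11, 0.99 on Zfp451, 0.88 on Esx1 and 0.85 on Pdx1. Both Cd59a probes were well above background on all 12 arrays and put the same 6 arrays highest, in different orders.

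C4b supplies the C4 fragment of the convertases of the classical and lectin pathways. Its probe lies on chromosome 17 at 32815561 to 32815620 on the minus strand (mm7), and the file also lists the accession of C4a, a near-identical gene, for it, so the reading may hold both. The C4b level was -4.63 on EGFP and -4.96 on mock. It was -3.91 on Crebzf, -4.12 on Pdx1, -4.24 on Sox11, -4.28 on Esx1, -4.38 on Zfp451 and -4.46 on Pax6. It was -4.81 on Etv6, -4.83 on Gatad2b, -5.05 on Nfxl1 and -5.28 on Hmga2. The 6 arrays were again the highest, but their differences from the control mean, 0.33 on Pax6 to 0.88 on Crebzf, are to be read beside a gap of 0.33 between the controls. Neighbours in this order nowhere differed by more than 0.23. As for C3, the share of all genes that put these arrays highest is not given here. Against mock alone, C4b on Crebzf passed the rule at 1.05. The probe named C4a, for which the file also lists the C4b accession, was well above background on no array, so the probes that carry this accession disagree.

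Cfb encodes factor B, which provides the protease of the alternative pathway's C3 convertase. Its probe, at 32952681 to 32953037 on chromosome 17, was well above background on the Pax6 array alone, at a level of -6.36. The other 11 arrays lay at their floor, between -7.05 and -6.46. Cfb on Pax6 was thus at least 1.36-fold above the controls and was not called. That depended on the floor. Without it, the Cfb difference on the Crebzf, Esx1, Pax6, Pdx1, Sox11 and Zfp451 arrays ran from 0.78 to 2.35, with 1 array called. Cd55 encodes decay-accelerating factor, which takes C3 convertases apart on the cell surface. All 3 of its probes on chromosome 1 were well above background on none of the 12 arrays, so the arrays give only an upper bound for Cd55. The main probe of its duplicate Cd55b, 1 of 2 probes for that gene, was likewise well above background on no array.

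The rest of the pathway was read from a list of 45 other complement genes, of which 26 were detected, that is well above background, on 1 array or more and 15 on all 12. Of the 26, 8 were called higher on Pax6, 6 on Esx1 and 5 each on Crebzf, Pdx1, Sox11 and Zfp451, beside the 9.6% to 10.7% of all genes. On Etv6, 2 were called higher, and on Hmga2, Gatad2b and Nfxl1 none, beside 0.301% to 1.05%. Some of the 26 were detected only on arrays where they were high. Cd59b and Colec10 were well above background on the first 6 arrays alone, and Cfd on Pax6 alone. The shares of all genes rest on the same filter. They are background to the counts and not a test of the pathway. The only lower calls were Itgax on Pdx1 and Cr2 on Sox11. These 2 genes, with Colec10, Cfd, C6 and Clu below, are named outside the naming rule, after their values were seen. Genes of the list that are named here although called on no array are further exceptions to that rule. The median difference over the 26 genes lay between -0.10 (Esx1) and 0.22 (Pax6) on the first 6 arrays, beside -0.15 to -0.02 over all genes tested. Over the 5 detected members it lay between 0.59 and 1.04.

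**Figure D3:**
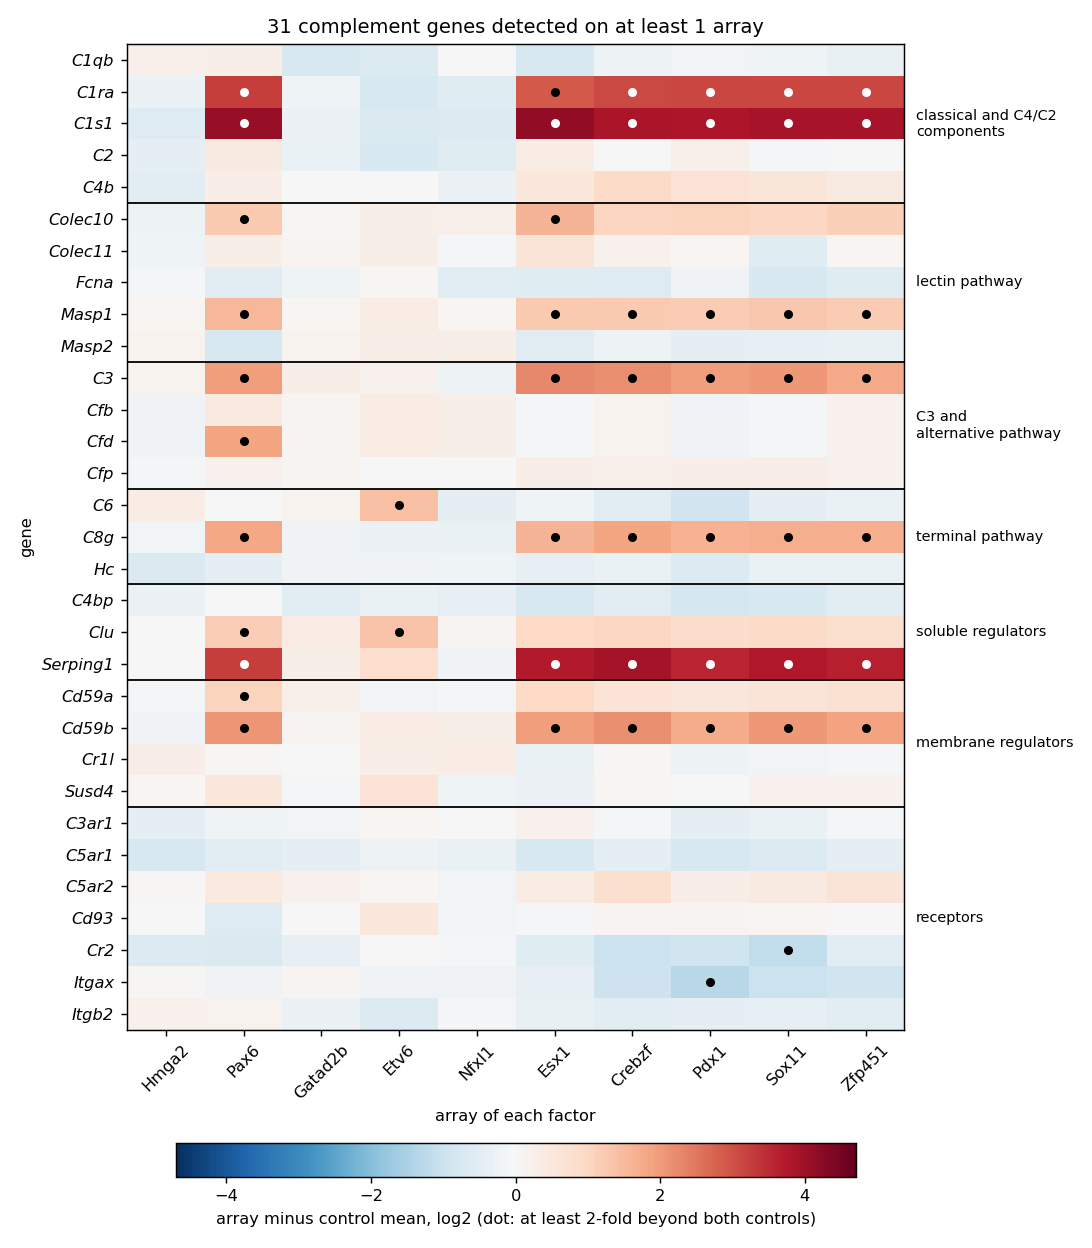
Difference from the control mean (log2, colour) of each complement gene detected on 1 array or more, by role in the pathway, on each factor's array. Dots mark genes at least 2-fold above or below both controls. C1ra, C1s1, Masp1, C3, C8g, Serping1 and Cd59b carry dots on the Crebzf, Esx1, Pax6, Pdx1, Sox11 and Zfp451 arrays, and no receptor gene was called higher on any array.

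Among the proteases that Serping1 inhibits, C1ra and C1s1, the mouse genes for C1r and C1s, were called on the same 6 arrays. The C1s1 level was -2.11 on EGFP, -2.24 on mock, 1.92 on Pax6, 1.99 on Esx1, 1.65 on Crebzf, 1.64 on Pdx1, 1.71 on Sox11 and 1.69 on Zfp451, and between -2.85 and -2.45 on the other 4 factor arrays. C1s1 was thus 14.1-fold (Pdx1) to 17.9-fold (Esx1) above the control mean. C1ra was 7.28-fold (Esx1) to 9.56-fold (Pax6) above it on these arrays. Second probes of C1ra and C1s1 were called on the same 6 arrays, with C1s1 differences up to 4.14. On the other 4 factor arrays both genes lay below the control mean, with differences down to -0.75 for C1ra and -0.68 for C1s1, and neither was called. The C1q chains, which bind targets, were not called. The probe for C1qb was well above background on all 12 arrays with differences between -0.74 and 0.26, while C1qa and C1qc were well above background on none. C2, the protease that joins C4 in the convertase, was called on none, with differences from -0.72 to 0.42.

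In the lectin pathway, Masp1, a protease that circulates with mannose-binding lectin and ficolins, was called on the same 6 arrays at 2.27- to 2.98-fold. The 3 other Masp1 probes disagreed. None was called on more than 1 array, and 1 of them differed by -0.74 to -0.43 from the controls on the 4 slide 3 arrays. Colec10, a collectin, was called on Pax6 and Esx1 at least 2.33-fold and at least 3.0-fold above the controls. It was also well above background on Crebzf, Pdx1, Sox11 and Zfp451, and on no other array. There it was not called, at least 1.96-fold (Sox11) to at least 2.20-fold (Zfp451) above the control mean. Mbl1, Mbl2 and Fcnb were well above background on no array, and Masp2, Fcna and Colec11 were called on none. In the alternative pathway, Cfd, the protease that cleaves factor B, was at a level of -4.94 on Pax6 and not well above background on any other array, at least 3.65-fold above the controls. Cfp, which encodes properdin, was detected on all 12 arrays and differed by -0.05 to 0.31.

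Of the terminal components, C8g, the lipocalin-like subunit of C8, was called on the same 6 arrays at 3.0- to 3.66-fold. Its partners C8a and C8b, with C7 and C9, were well above background on no array. C6 was called on Etv6 alone, at 2.63-fold. Its level was -4.64 there, -5.67 on EGFP and -6.41 on mock, so the controls differed and the call was just past the rule against EGFP.

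Among the soluble regulators, Clu, which encodes clusterin, was called on Pax6 at 2.23-fold and on Etv6 at 2.53-fold. On Crebzf, Esx1, Pdx1, Sox11 and Zfp451 it fell short of the rule, at 1.69-fold (Zfp451) to 1.98-fold (Crebzf) above the control mean. Cfi, Vtn, Cpn1 and Cpn2 were well above background on no array.

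Among the membrane regulators, Cd59b, the duplicate of Cd59a, was well above background on exactly the 6 arrays where it was called, at least 3.38- to 4.58-fold above the controls. Its second probe was detected on none. Cr1l, which encodes the rodent regulator Crry, was well above background on all 12 arrays with differences of -0.29 to 0.34. Susd4 was called on no array, and Cd46 and Csmd1 were not detected. Of the 7 detected receptor genes, C3ar1, C5ar1, C5ar2, Cr2, Itgax, Itgb2 and Cd93, none was called higher. C3ar1 was well above background on the Esx1 array alone, and C5ar1 on the mock array alone. With 9.6% to 10.7% of all genes called higher on the arrays where Cd59b was called, 7 genes are too few to set the receptors apart.

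Slides were a batch that overlaps with these differences. EGFP, mock, Hmga2 and Pax6 shared slide 1, Gatad2b, Etv6, Esx1 and Nfxl1 shared slide 2, and Crebzf, Pdx1, Sox11 and Zfp451 made up slide 3. Within slide 1, C3 on Pax6 was 3.52-fold above the highest other array and Serping1 9.30-fold. Within slide 2, C3 on Esx1 was 3.79-fold and Serping1 7.67-fold above the highest other array. On slide 3 all arrays were high and no control was present, so for Crebzf, Pdx1, Sox11 and Zfp451 the slide and the factor cannot be told apart. When each probe was centred within slides, the C3 difference on these 4 arrays was 0.33 to 0.73 and the Serping1 difference 0.68 to 1.0, and neither was called there, while both stayed called on Pax6 and Esx1.

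**Figure D4:**
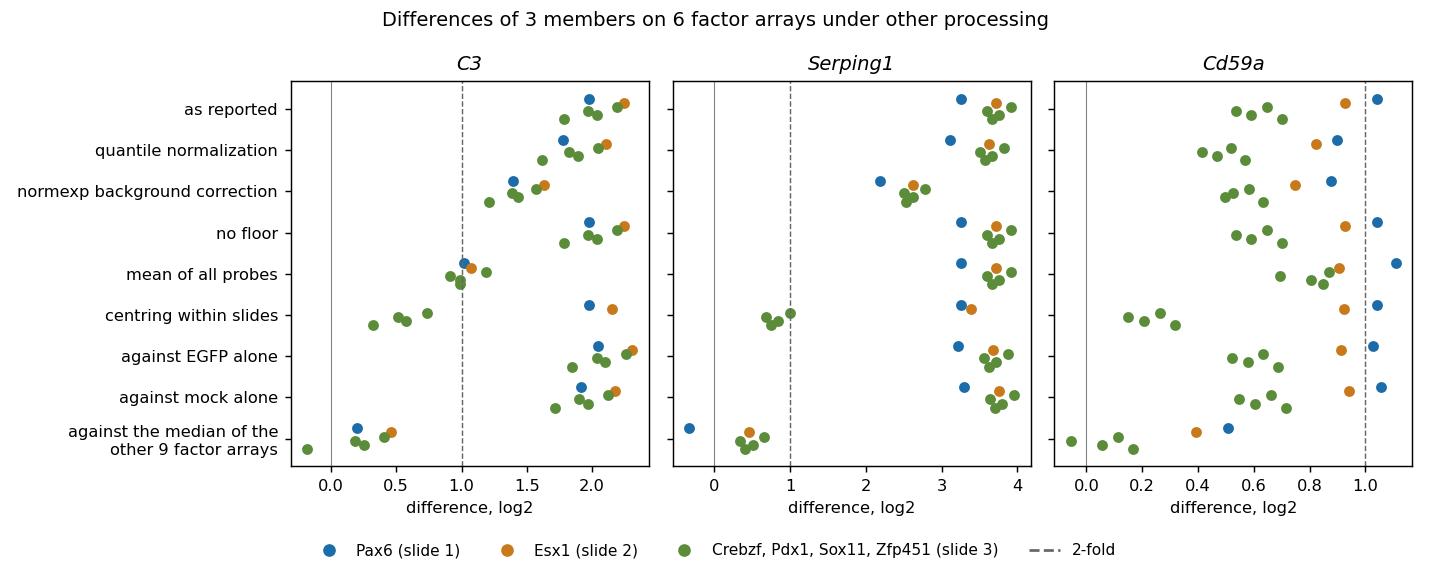
Difference (log2) of C3, Serping1 and Cd59a on the Crebzf, Esx1, Pax6, Pdx1, Sox11 and Zfp451 arrays as reported and under each alternative processing, 1 point an array, coloured by slide, with a dashed line at 2-fold. C3 and Serping1 stay beyond 2-fold on all 6 arrays under quantile normalization, normexp, no floor and either control alone. Centring within slides, or taking the other factor arrays' median as reference, brings the slide 3 points down to between -0.18 and 1.0 for these genes.

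The background correction changed the sizes. With normexp, the C3 difference on the 6 arrays was 1.21 to 1.63 in place of 1.78 to 2.24, and the Serping1 difference 2.19 to 2.78 in place of 3.26 to 3.92, with every call kept.

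Markers of other cell types moved on the same arrays, where 9.6% to 10.7% of all genes tested were called higher. In bulk RNA, more cells of a type and more RNA per cell cannot be told apart. Of 10 astrocyte markers, 3 to 5 were called higher on the Crebzf, Esx1, Pax6, Pdx1, Sox11 and Zfp451 arrays, and their summed level, on the linear scale in units of each array's 75th percentile, was 33.1 to 37.4 there and 12.2 to 14.2 on the other 6 arrays. Aqp4 was an outlier spot on Pax6 and left out there. The defining astrocyte marker Gfap was well above background on the EGFP array alone. Of 10 fibroblast markers, 4 to 7 were called higher, with a summed level of 232 to 248 against 99.4 to 111. Postn, for example, had a level of 1.72 to 2.59 on the first set of arrays and -5.85 to -4.44 on the others. Of 8 neuronal markers 3 to 4 were called higher, with a summed level of 1.69 to 1.82 against 0.95 to 1.09, and Dcx was well above background on the EGFP array alone. The part of these markers' cell types in the complement values was not tested. For microglia, a source of complement in brain, P2ry12, Tyrobp, Trem2 and Spi1 were well above background on no array, while Tmem119, Cd68 and Fcer1g were on all 12. Of the 8 detected microglia and macrophage markers, 1 to 2 were called higher, Aif1 on each of the 6 arrays, while Fcer1g was called lower on 5 of them, and the summed level was 6.04 to 6.65 against 4.41 to 5.87. For hepatocytes, the main source of plasma complement, Alb, Ttr, Apoa1, Fgb and Ambp were well above background on none, and the summed level of the list was 0.089 to 0.11 against 0.063 to 0.13. Hnf4a, a detected gene of that list, was called lower on the 6 arrays and on Hmga2. The endothelial markers Pecam1, Cdh5 and Tie1 were likewise on none, with a summed level of 0.064 to 0.08 against 0.07 to 0.087, and Cldn5 was called lower on Esx1 and Pdx1. The labelled cell type showed its markers: Nes, Sox2 and Vim were well above background on all 12 arrays, with a summed level of the list of 85.8 to 104 on the 6 arrays and 100.3 to 128 on the others. Of the 12 markers of that list, Nes was called lower on Pax6, Esx1, Crebzf, Sox11 and Zfp451, Sox1 lower on Crebzf and Msi1 lower on Zfp451, while Slc1a3 was called higher on Pax6 and Fabp7 and Olig2 higher on Crebzf. On the other 4 factor arrays the remaining calls among these marker lists were Aqp4 higher and Postn lower on Hmga2, Rbfox3 higher on Gatad2b, Dcn higher on Etv6 and Cx3cr1 higher on Nfxl1.

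Arrays were of like quality. The 75th percentile of signal was 823.5 to 1026 units, the share of probes well above background was 62.5% to 69.1%, no spot was saturated, and the number of arrays limits the precision. The overexpressed genes themselves did not mark their arrays. Of 26 probes of the 10 factors, 3 were highest on the array of their own factor, and none was 2-fold above every other array. The sources used here do not give whether those probes lie within the inserted reading frames, so they do not check the labels.

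Members were also set beside all other genes by the shape of their values over the 12 arrays. This likeness is a Pearson correlation of log2 levels with no test, and the 12 points share the split described above, which lifts it for many genes: 19.4% of 16073 genes had r of at least 0.9 with C3 and 19.2% with Serping1, 12.4% with Cd59a and 3.88% with C4b. The 5 genes most like C3 were Ccdc189, Sdf2, Hexim2, Pafah1b3 and Ifi27, with r from 0.993 to 0.995. Those most like Serping1 were Selenbp2, Selenbp1, Mfap2, Cox7a1 and Dkk2, with r from 0.998 to 0.999. Those most like Cd59a were Dpysl3, Slc1a3, Mylk, Decr2 and Far1, with r from 0.984 to 0.989, and those most like C4b were Caml, Efhd1, Syce2, Aldh3a2 and Pgrmc1, with r from 0.952 to 0.967. Of each 5, quantile normalization kept 1 for C3, 2 for Serping1, 1 for Cd59a and 1 for C4b. Within the 6 high arrays, r over the pairs of C3, C4b, Serping1 and Cd59a ran from -0.644 (C4b with Cd59a) to 0.749 (C4b with Serping1), with Serping1 and Cd59a at -0.616 and C3 and Serping1 at 0.416. Within the other 6 arrays it ran from -0.034 (Serping1 with Cd59a) to 0.599 (C3 with Serping1). Within the 6 high arrays, these members paired with C1ra, C1s1 and C8g gave r from -0.615 (C3 with C1ra) to 0.910 (Cd59a with C1s1). Each of these values rests on 6 arrays chosen by the split, over a narrow range of levels. They do not decide whether the likeness over all 12 arrays extends inside the split.

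The members' genomic neighbours were read by the same rule. C3, C4b and Cfb lie on chromosome 17, the last pair in the class III region of the major histocompatibility complex, Serping1 and Cd59a on chromosome 2 and Cd55 on chromosome 1. The 5 protein-coding genes on each side of each member gave 55 genes, of which 44 were detected. Of these, 4 were called higher on at least 4 factor arrays, which is 9.09% beside 9.17% of all genes tested: Tnfsf9 near C3, Ypel4 and Ube2l6 on either side of Serping1, and Cd59b beside Cd59a. Ypel4 differed by 2.56 to 3.08 on the 6 arrays and Ube2l6, a ubiquitin-conjugating enzyme that serves ISG15, by 1.09 to 1.64. Timm10, also near Serping1, was lower on all 6, by -1.78 to -1.41. None of the 10 neighbours of C4b or of Cfb was called on as many as 4 arrays.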

How the data were processed

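Cy3-labelled RNA from 12 cultures, 0.25 µg each, was hybridised to Agilent whole mouse genome arrays, 1 array a group. Per the file headers, the deposited scanner files were made with Agilent Feature Extraction 10.7.3.1, and the values used are background-subtracted spot intensities on the linear scale (gProcessedSignal) with the software's flags. On every array this intensity is also what the series' deposited value table holds. Probe positions refer to mm7, per the file headers. The sources used here do not give any normalisation after image analysis.

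Of 43379 spots that were not controls, outlier-flagged ones were left out and repeats averaged. Log2 intensities were set relative to each array's 75th percentile and raised to a floor at the array's lowest well-above-background signal. Probes were named by RefSeq accession, symbol or synonym. A gene took its probe with the highest mean. In all, 20967 genes were well above background on at least 1 array. The call rule, with both controls shared by all 10 factors, is given above. Folds are against the control mean and are lower bounds ("at least") where the dimmer side was not well above background. With 1 array a group no p-value was computed.

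The members, gene lists and rules were chosen with earlier results of these data known. Named were all member probes, other complement genes called on at least 4 factor arrays or on 1 by at least 4-fold, the 5 genes most like each member, and neighbours called on at least 4 arrays. Exceptions are marked. Of the pathway list, 2 genes are not reported here and were left out of its counts. Alternatives were quantile normalization, normexp (offset 50, limma 3.58.1), no floor, the mean of all probes, centring within slides, genes well above background on all 12 arrays, each control alone, the median of the other 9 factor arrays, and 1.5- and 3-fold rules. Python 3.11.15, pandas 2.3.3 and R 4.3.3 were used.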

Additional observations from a re-analysis of the deposited data

How the results depend on the processing

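Each factor had 1 array, so no replicate could be left out. No paired analysis was possible because no group held more than 1 sample. The other 162 of 224 counts over alternatives stayed within 1.5 times the reported count, and of 440 single differences of members 354 kept their call and size. The share of all genes called is given only for the 2-fold rule against both controls with the main processing. The counts below under other settings therefore have no such share beside them. A rise or fall in them is not shown to be particular to complement.

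Counts of called members below were 3 on Pax6 and 2 on Esx1, Crebzf, Pdx1, Sox11 and Zfp451, and counts of other complement genes, in both directions, were 8 on Pax6, 6 on Esx1, Pdx1 and Sox11, 5 on Crebzf and Zfp451, 2 on Etv6 and 0 on Hmga2, Gatad2b and Nfxl1. With centring within slides, called members fell to 0 on each of the 4 slide 3 arrays, and other complement genes to 0 on those arrays (Crebzf, Pdx1, Sox11 and Zfp451) and on Etv6. This setting removes by construction whatever the arrays of slide 3 share. With the mean of all probes, called members were 1 on Esx1, Pdx1, Sox11 and Zfp451, and other complement genes 3 on Crebzf, Pdx1, Sox11 and Zfp451. That mean takes in undetected probes. With normexp, other complement genes were 5 on Pax6 and 1 on Etv6. Restricted to genes well above background on all 12 arrays, they were 5 on Pax6 and 1 on Etv6, with fewer genes tested. Against mock alone they were 1 on each of Hmga2, Gatad2b and Nfxl1 and 8 on Crebzf. C5ar1 was well above background on the mock array alone, at a level of -5.37. Its level was -6.98 on Hmga2, -6.68 on Gatad2b, -6.51 on Nfxl1 and -6.63 on Crebzf, which passes the rule as lower than mock. On Crebzf, Cr2 was -6.63 against -5.61 on mock, also lower, and Clu 1.89 against 0.87, higher. Why C5ar1 stood out on the mock array was not tested.

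Against the median of the other 9 factor arrays, called members were 0 on Pax6, Esx1, Crebzf, Pdx1, Sox11 and Zfp451 and 2, lower, on Hmga2, Gatad2b, Etv6 and Nfxl1. Other complement genes were then 1 on Pax6, 6 on Hmga2, 5 on Gatad2b, Etv6 and Nfxl1, 1 on Pdx1 and 0 on Esx1, Crebzf, Sox11 and Zfp451. This reference is itself drawn mostly from high arrays. Under it the Serping1 difference on Pax6 turned to -0.34 and the C3 difference on Zfp451 to -0.18.

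With a 1.5-fold rule, called members were 1 on Etv6 and 4 on Crebzf, and other complement genes 1 on Hmga2 and Gatad2b, 6 on Etv6, 8 on Zfp451 and 10 on Crebzf. With a 3-fold rule the latter were 5 on Pax6, 0 on Etv6, 3 on Esx1, Sox11 and Zfp451 and 2 on Pdx1. Under quantile normalization, shared genes among the 5 most like a member were 1 for C3, 1 for C4b, 2 for Serping1 and 1 for Cd59a, and the cause was not tested. Signal near background limits Cfb, Cd55 and Cd59b, for which folds are lower bounds or cannot be given.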
